A study of Homo sapiens with 4 samples.

Results

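This account follows 8 chemokine genes, IL8 (current symbol CXCL8), CXCL1, CXCL2, CXCL3, CXCL5, CXCL6, CCL2 and CCL20, through RNA sequencing of A375, a human melanoma cell line. They were taken by symbol from the 23284 gene symbols measured, and all 8 symbols were found in every library. There were 4 groups with 1 library each. Stable transfectants of A375 with empty pcDNA3 (vector library) were the control for those with pcDNA3-MAGE-A1 (overexpression library). Stable transfectants with pRNAT-scramble, a control hairpin (scramble library), were the control for those with pRNAT-shMAGE-A1, a hairpin against MAGE-A1 (knockdown library). Where 4 values are given in library order, that order is vector, overexpression, scramble, knockdown; pairs of values give the control first. MAGE-A1 is a cancer-testis antigen, a protein made in testis and in many tumours. The series title places IL8 in a network with c-JUN and ARHGAP29 that MAGE-A1 affects, so IL8 was a gene of the study's own choice. Whether the transfected cells were single clones or pools is not given in the sources used here. With 1 library per group there was no replicate check and no test, so every difference below is one between libraries.

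Chemokines are small secreted proteins that bind receptors coupled to G proteins and direct the movement of cells. IL8, CXCL1, CXCL2, CXCL3, CXCL5 and CXCL6 carry a glutamate-leucine-arginine motif before the CXC cysteines, attract neutrophils and promote vessel growth through the receptor CXCR2, which IL8 and CXCL6 share with CXCR1. CCL2 attracts monocytes through CCR2, and CCL20 attracts lymphocytes and immature dendritic cells through CCR6. Inflammatory signals switch these genes on through NF-kB, in IL8 together with AP-1 (dimers of JUN and FOS proteins) and C/EBP factors. IL8 and CXCL1 are known growth and migration signals of melanoma cells, and CXCL1 was first described in them.

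The 6 CXC genes lie together on chromosome 4, from IL8 (73740569 to 73743716 in GRCh38.p14) through CXCL6, CXCL1, CXCL5 and CXCL3 to CXCL2 (74097040 to 74099195). CCL2 lies on chromosome 17 (34255285 to 34257203) and CCL20 on chromosome 2 (227813842 to 227817556). Promoter sequence is shown first because these genes are known NF-kB targets. Of the 8 genes, 7 matched a RefSeq promoter (GRCh38.p14), each read from 250 bases upstream to the start site. The windows run from base -150 to base -61 before the start site, 5′ to 3′ on the gene's own strand. Capitals mark matches to GGAATTTCC and GGGAAAACCC (NF-kB), TGANTCA (AP-1) and TTGCAAAT (C/EBP). The windows lie at chr4:73740419-73740508 (IL8, plus strand), chr4:73869243-73869332 (CXCL1, plus), chr4:74099256-74099345 (CXCL2, minus) and chr4:74038750-74038839 (CXCL3, minus). The others lie at chr4:73998738-73998827 (CXCL5, minus), chr4:73836528-73836617 (CXCL6, plus) and chr2:227813692-227813781 (CCL20, plus).
IL8: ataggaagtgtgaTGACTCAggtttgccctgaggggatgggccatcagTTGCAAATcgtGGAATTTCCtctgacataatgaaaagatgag
CXCL1: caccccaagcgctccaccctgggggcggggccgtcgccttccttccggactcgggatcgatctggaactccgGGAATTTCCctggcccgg
CXCL2: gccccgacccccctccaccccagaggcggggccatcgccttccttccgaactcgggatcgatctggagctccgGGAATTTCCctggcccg
CXCL3: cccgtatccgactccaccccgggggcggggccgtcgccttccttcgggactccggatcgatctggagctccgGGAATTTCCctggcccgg
CXCL5: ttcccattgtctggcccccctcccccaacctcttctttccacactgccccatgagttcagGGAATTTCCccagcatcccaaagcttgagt
CXCL6: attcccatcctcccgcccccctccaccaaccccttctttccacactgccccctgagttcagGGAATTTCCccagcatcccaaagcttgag
CCL20: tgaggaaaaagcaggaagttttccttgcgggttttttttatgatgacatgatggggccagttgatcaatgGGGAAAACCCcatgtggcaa

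All 6 CXC genes held GGAATTTCC on their own strand, starting between base -91 (IL8) and base -77 (CXCL2). Searched on both strands, that word occurred in 0.413% of 35116 RefSeq promoters over the same 250 bases. CCL20 held GGGAAAACCC at base -80, a word found in 0.142% of promoters. TGANTCA occurred in 6.57% of promoters and, among the 7, in IL8 alone (base -137). TTGCAAAT occurred in 0.763% of promoters, and in IL8 (base -102) and CCL20 (base -230, outside the window shown). The word TATAAA (10.7% of promoters) lay near the start of IL8 and CCL20. CATAAAA (3.4%) lay there in CXCL1, CXCL2 and CXCL3, and farther upstream on the other strand in CCL20. Of all 35116 promoters, 1, that of IL8, held GGAATTTCC, TGANTCA and TTGCAAAT together. The words were chosen after these promoters had been read, and a match is a description of letters, not evidence of binding.

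**Figure D1:**
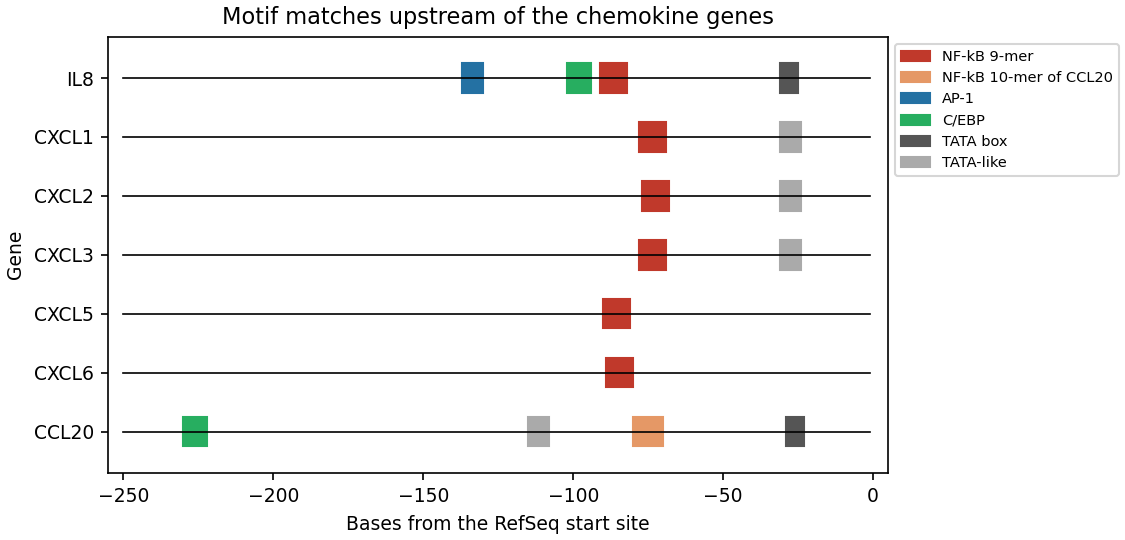
Matches to each motif (coloured boxes, both strands) over the 250 bases before the RefSeq start site, with the distance in bases on the horizontal axis and 1 line per gene. The NF-kB boxes of all 7 genes sit between base -91 and base -69, the AP-1 box stands in IL8 alone, and 5 of the 7 genes hold a box of the TATA or TATA-like kind.

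Levels are RPKM, reads scaled to transcript length and to library depth, so that genes can be set beside each other. From the steps in low RPKM values, the depth was estimated at 24530000, 12630000, 16350000 and 19630000 reads in library order. Reads per gene were estimated from these depths, and read ratios carry exact conditional (Clopper-Pearson) 95% intervals that cover counting error only. MAGEA1 itself was at 1.80 and 126 RPKM in the overexpression pair (read ratio 69.6, interval 54.6 to 90.1). It was at 0.767 and 0.473 RPKM in the knockdown pair (read ratio 0.614, interval 0.285 to 1.29). A lower level with the hairpin was thus not detectable against the scramble library at this depth, and the name of the knockdown library is that of its label. The controls themselves differed, at 1.80 RPKM in the vector library (67 estimated reads) and 0.767 in the scramble library (19 reads). The knockdown library, with 14 reads, lay below both. Of the melanocyte lineage genes, SOX10 was at 281 to 336 RPKM and MITF at 7.17 to 11.4, while PMEL, MLANA, TYR and TYRP1 were all under 1 RPKM. Other genes of that list moved: S100B (88.8 and 17.4 RPKM) and S100A1 (66.3 and 26.4) were lower with overexpression, and DCT (8.16 and 1.14) was lower with knockdown. Chemokines are typical products of leukocytes, but among 11 leukocyte markers S100A8 and S100A9 were listed at 0 throughout and the pan-leukocyte marker PTPRC did not exceed 0.0436 RPKM. CD68 (23.8 to 39.8 RPKM) and LYZ (1.63 to 5.40) were the only leukocyte markers at 1 RPKM or more, and the summed level of the 11 markers was 25.8 to 42.8 RPKM.

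The chemokines followed different patterns over the 4 libraries. IL8 was about 3-fold higher with MAGE-A1 overexpression and about 11-fold lower with the hairpin, each against its own control. CXCL1 was far lower with the hairpin, but was not higher with overexpression. CXCL2, CXCL3 and CCL20 were higher with overexpression from low starting levels, and CCL2 was lower in both manipulated libraries than in either control. CXCL5 was barely detected and CXCL6 was listed at 0 in all 4 libraries.

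**Figure D2:**
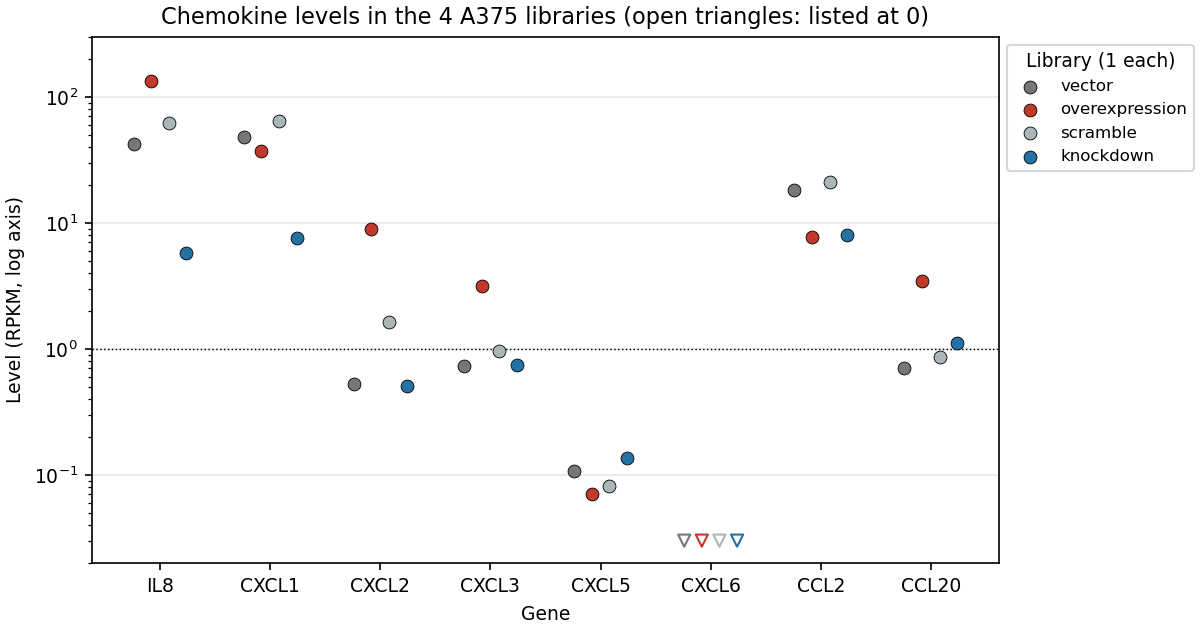
Level of each chemokine gene (RPKM, log axis) in the 4 libraries, 1 point per library, with open triangles for genes listed at 0 and a dotted line at 1 RPKM. IL8 and CXCL1 lie between 37.3 and 133 RPKM in all libraries but the knockdown library, where they are at 5.75 and 7.52.

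For each pair of libraries, genes at 1 RPKM or more in either were compared by log2 of (RPKM + 1) over (RPKM + 1), which understates the ratio of low genes. A gene at or past 2-fold on that scale was counted as higher or lower. With overexpression against vector, 6 of the 8 chemokines could be measured, of which 4 were higher and 1 lower, where 10.6% of all 13577 measured genes were higher and 7.28% lower. Of those 4, CXCL2, CXCL3 and CCL20 were under 1 RPKM in the vector library and could be measured only because they were high with overexpression, so they had to differ and the count supports nothing about the group. Among the 3 chemokines at 1 RPKM or more in the vector library, IL8 was higher, CCL2 lower and CXCL1 within 2-fold. With knockdown against scramble, 5 could be measured and 3 were lower, with 8.52% of 13569 genes lower. None of those 5 was higher, against 12.4% of all genes. Between the scramble and vector libraries 4 could be measured and 0 passed 2-fold in either direction, with 0.893% of 13326 genes higher and 1.79% lower. CXCL2 was measured there only through the scramble library, and the 3 lower genes were above 1 RPKM in both libraries. IL8 was one of 127 genes, 0.969% of the 13106 measured in both pairs, past 2-fold upward with overexpression and downward with knockdown.

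**Figure D3:**
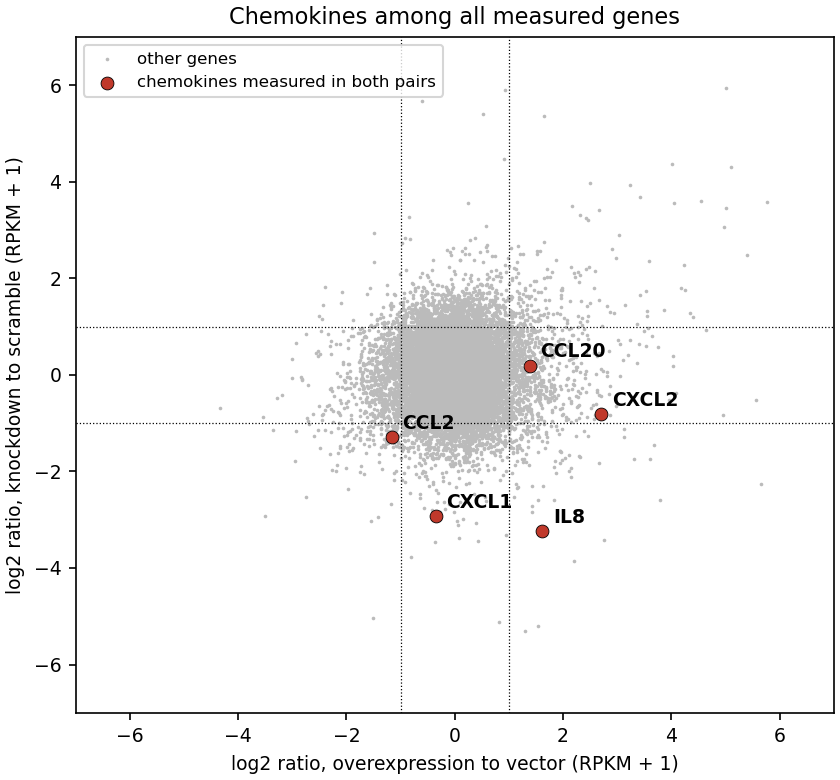
Log2 ratio of each gene in the overexpression pair (horizontal) and in the knockdown pair (vertical) for the 12745 genes measured in both pairs that are not small RNA genes, with dotted lines at 2-fold and the 5 chemokines measured in both pairs in red. IL8 lies at 1.62 and -3.23, CXCL1 at -0.35 and -2.93, and CCL2 at -1.16 and -1.29.

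IL8 was at 42.5 RPKM with empty vector and 133 with MAGE-A1 overexpressed, and at 62.5 with the scrambled hairpin and 5.75 with the MAGE-A1 hairpin. The overexpression library was highest and the knockdown library lowest, and both controls lay between them. The log2 ratio was 1.62 with overexpression (estimated reads 1570 and 2526, read ratio 3.12, interval 2.93 to 3.33) and -3.23 with knockdown (1537 and 170 reads, read ratio 0.0921, interval 0.0782 to 0.108). The controls themselves differed by a read ratio of 1.47 (scramble to vector, interval 1.37 to 1.58), beyond counting error, and each step in the order of the 4 levels exceeded it. Against the scramble library, overexpression stood at a read ratio of 2.13 (1.99 to 2.27), and against the vector library, knockdown stood at 0.135 (0.115 to 0.159). Neither direction therefore depended on which control was used, while the size of both differences did.

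CXCL1, the closest companion of IL8 among the CXCR2 ligands by level, was at 47.6, 37.3, 63.9 and 7.52 RPKM in library order. The knockdown library stood far below the other 3, and the overexpression library lay below both controls. Fewer cells making a transcript and less of it per cell cannot be told apart in such bulk libraries, here and in each comparison. With knockdown the read ratio was 0.117 (937 and 132 reads, interval 0.0970 to 0.141, log2 ratio -2.93). With overexpression it was 0.784 (1048 and 423 reads, interval 0.698 to 0.878, log2 ratio -0.35), within 2-fold. Being lower with knockdown and within 2-fold with overexpression was shared by 6.67% of the 13106 genes. The read ratio of IL8 divided by that of CXCL1, in which depth and library scaling cancel, was 3.99 with overexpression (interval 3.50 to 4.55) and 0.785 with knockdown (0.613 to 1.01). The 2 genes thus parted in the overexpression pair beyond counting error, and in the knockdown pair the interval of their difference included 1.

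CXCL2 and CXCL3 encode close relatives of CXCL1 that act on the same receptor. CXCL2 was at 0.527 RPKM with empty vector, 8.99 with overexpression, 1.64 with the scrambled hairpin and 0.508 with the MAGE-A1 hairpin. The overexpression library was far above the others, with a log2 ratio of 2.71 and a read ratio of 17.3 (13 and 116 reads, interval 9.74 to 33.5). Its read ratio of knockdown to scramble was 0.308 (27 and 10 reads, interval 0.133 to 0.658), but the log2 ratio with a pseudocount was -0.81 and did not pass 2-fold. The vector and knockdown libraries were within counting error of each other (read ratio of vector to knockdown 1.04, interval 0.421 to 2.65), and the scramble library was above the vector library by a read ratio of 3.12 (1.55 to 6.58). The low value with the hairpin was thus beyond counting error against the scramble control alone. Being higher with overexpression and within 2-fold with knockdown, as CXCL2 and CCL20 were, was shared by 5.46% of the 13106 genes.

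CXCL3 was at 0.725, 3.15, 0.960 and 0.749 RPKM in library order. The overexpression library stood above the other 3, which lay within counting error of each other. Its log2 ratio was 1.27 and its read ratio 4.25 (16 and 35 reads, interval 2.29 to 8.22). It was under 1 RPKM in both libraries of the knockdown pair, and the read ratio there was 0.773 (0.335 to 1.77).

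CXCL1, CXCL2 and CXCL3 are near-identical in their coding sequence, so how the authors' counting divided their reads is not certain. Coding identity was 93.5% between CXCL1 and CXCL2, 90.7% between CXCL1 and CXCL3 and 94.4% between CXCL2 and CXCL3, by global alignment of GENCODE 29 transcripts. Over the whole transcripts, however, only 5.73% of the 50-base words of CXCL1 occurred in CXCL2 and 0.573% in CXCL3. No word of 50 bases was shared between IL8 and any other of the 8. The part of read sharing in the values of CXCL2 and CXCL3 was not tested.

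CXCL5 and CXCL6, a pair with 87.4% coding identity, were at the limit of detection. CXCL5 was at 0.108, 0.0699, 0.0809 and 0.135 RPKM in library order, which stands for 6, 2, 3 and 6 reads. No order could be read from these counts: the read ratio was 0.647 with overexpression (interval 0.0639 to 3.62) and 1.67 with knockdown (0.356 to 10.3). CXCL6 was listed at 0 in every library, and a true count of 0 would allow up to 0.0806 RPKM in the deepest and 0.156 RPKM in the shallowest library, taking 3 reads as the limit. Both promoters hold the same NF-kB word as IL8 and CXCL1, shown above.

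The summed level of the 6 CXC genes was 91.5 RPKM with empty vector, 182 with overexpression, 129 with the scrambled hairpin and 14.7 with the MAGE-A1 hairpin. In the controls IL8 and CXCL1 made up nearly equal parts, with IL8 at 46.5% and 48.4% of the sum and CXCL1 at 52.0% and 49.5%. With overexpression the make-up moved to 72.9% IL8 and 20.4% CXCL1, and CXCL2 and CXCL3 together held 6.66%, against 1.37% in the vector library. With the hairpin IL8 held 39.2% and CXCL1 51.3% of a much smaller sum, and CXCL2 and CXCL3 held 8.57%, against 2.02% in the scramble library. Their share was thus higher in both manipulated libraries than in the controls.

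**Figure D4:**
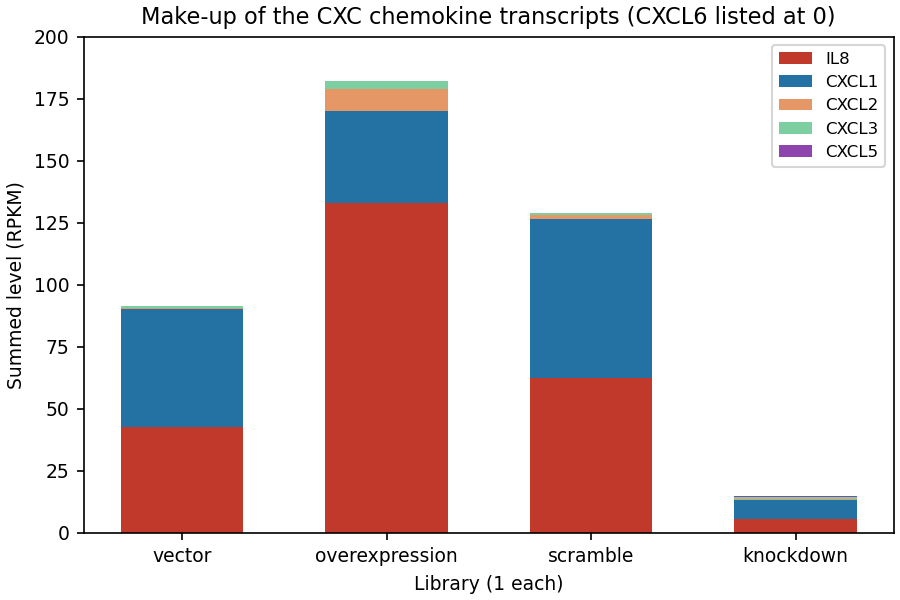
Summed level of the CXC chemokine genes (RPKM, linear axis from 0) in each library, with 1 colour per gene. The sum is 182 RPKM with overexpression, mostly IL8, and 14.7 RPKM with knockdown.

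Neither CC chemokine followed IL8 in both pairs: CCL2 was lower with overexpression, and CCL20 was not lower with knockdown. CCL2 was at 18.4 RPKM with empty vector, 7.67 with overexpression, 21.0 with the scrambled hairpin and 8.03 with the MAGE-A1 hairpin. Both manipulated libraries lay below both controls, and the 2 within each kind were within counting error of each other (scramble to vector 1.14, interval 0.940 to 1.39; knockdown to overexpression 1.05, interval 0.737 to 1.52). The read ratio was 0.414 with overexpression (244 and 52 reads, interval 0.301 to 0.560, log2 ratio -1.16) and 0.381 with knockdown (186 and 85 reads, interval 0.291 to 0.495, log2 ratio -1.29). Of the 13106 genes measured in both pairs, 0.992% were lower in both. Fibroblasts are a known source of CCL2, and 4 of 7 fibroblast markers reached 1 RPKM, with a summed level of 13.4, 5.88, 13.3 and 10.7 RPKM in library order. Of their defining collagens, COL1A1 was at 0.963, 0.689, 1.21 and 0.835 RPKM in library order, and COL1A2 and COL3A1 did not exceed 0.313 and 0.0690 RPKM. PDGFRB, the highest of the fibroblast markers, was at 3.62 to 7.74 RPKM, and PDGFRA was at 0.483 to 1.25. Both were lower in the manipulated libraries than in either control, as CCL2 was, but within 2-fold in each pair. DCN did not exceed 0.944 RPKM. LUM was the 1 marker past 2-fold (3.73 and 0.824 RPKM with overexpression), and it was not lower with knockdown (2.54 and 2.76). Of the leukocyte markers, LYZ was lower with overexpression (5.40 and 1.68 RPKM). The part of other cells in the level of CCL2 was not tested. The read ratio of IL8 divided by that of CCL2 was 7.55 with overexpression (5.53 to 10.5) and 0.242 with knockdown (0.177 to 0.332).

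CCL20 was at 0.700, 3.45, 0.860 and 1.12 RPKM in library order. The overexpression library stood above the other 3, with a log2 ratio of 1.39 and a read ratio of 4.94 (11 and 28 reads, interval 2.38 to 11.0). The knockdown library was within counting error of its control (9 and 14 reads, read ratio 1.30, interval 0.522 to 3.39). Against IL8, CCL20 differed beyond counting error in the knockdown pair (IL8 ratio over CCL20 ratio 0.0713, interval 0.0268 to 0.180) while in the overexpression pair the interval included 1 (0.632, interval 0.283 to 1.31).

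**Figure D5:**
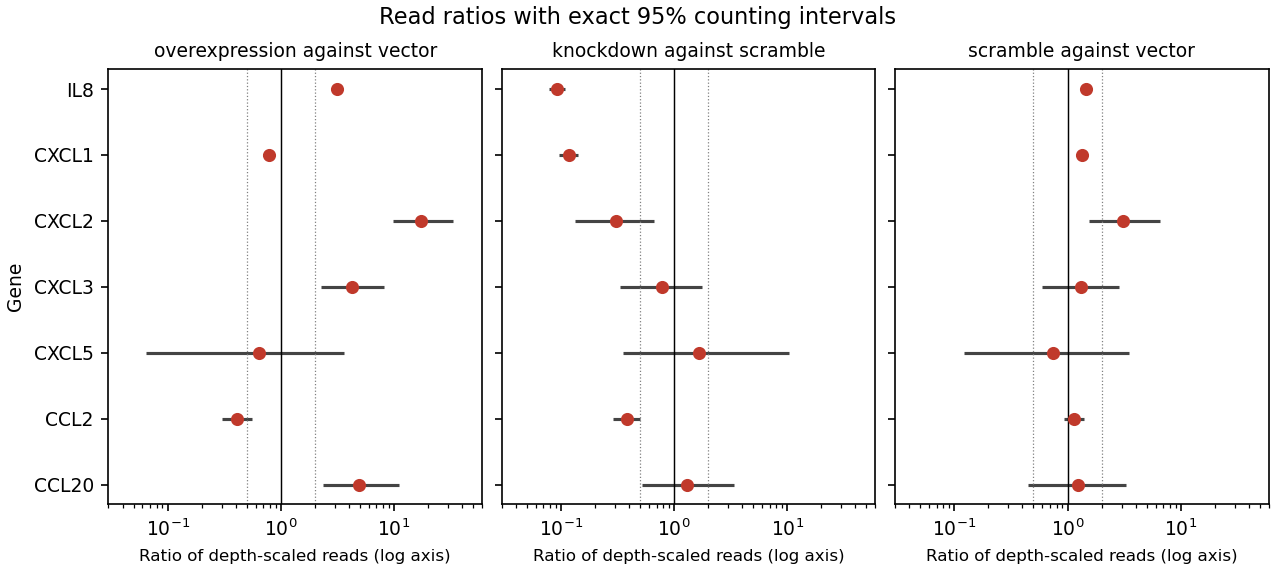
Ratio of depth-scaled estimated reads (log axis) for each chemokine gene in the 2 main pairs and between the controls, with exact 95% counting intervals as lines, a solid line at 1 and dotted lines at 0.5 and 2. IL8 and CXCL1 differ in the left panel (3.12 and 0.784) and lie close together in the middle panel (0.0921 and 0.117), and the intervals of CXCL5 include 1 in all 3 panels.

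The genes whose pattern was most like that of IL8 were found among 10282 genes at 5 RPKM or more in any library, without small RNA genes and LOC symbols. Likeness was the Euclidean distance over 3 log2 ratios to the vector library (overexpression, scramble and knockdown). The nearest was EMP1, an epithelial membrane protein (80.6, 236, 109 and 17.1 RPKM in library order), at a distance of 0.54. It was followed by JUN (distance 0.60, at 11.0, 42.0, 15.4 and 1.73 RPKM) and ARHGAP29 (0.62, at 6.84, 20.1, 11.9 and 0.793 RPKM). These are the other genes of the title. The title is that of this same series, so their place near IL8 is not independent of it. KRT80, a keratin, was also among the nearest (0.73), while the median distance was 3.34. Among the chemokines themselves CXCL1 was nearest to IL8, at 1.98. CXCL2 (2.90), CXCL3 (2.76), CCL20 (3.04) and CCL2 (3.22) were farther. The 3 ratios share the vector library, and these distances come from 4 libraries only.

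Few other chemokines were expressed. Of 11 other CXC ligands, 5 were listed at 0 in all libraries and 1 reached 1 RPKM, CXCL16, a membrane-bound ligand (2.31, 2.40, 2.14 and 2.17 RPKM in library order). Of 26 other CC, C and CX3C ligands in the files, 17 were listed at 0 throughout and 4 could be measured with overexpression, of which 2 were higher, both from under 1 RPKM in the vector library. These were the membrane-bound CX3CL1 (0.462 and 2.90 RPKM, and also higher with knockdown, 0.535 and 2.52) and the skin chemokine CCL27 (listed at 0 and at 1.62). The others measured, CCL28 (6.28, 3.34, 4.66 and 2.49 RPKM in library order) and XCL1 (1.25, 0.406, 1.05 and 1.18), were within 2-fold in both pairs. CCL28 was lower in both manipulated libraries than in either control. The signalling receptors CXCR1, CXCR2, CCR2 and CCR6 were at or near 0. CXCR2 was at 0.0330 RPKM in the vector library, listed at 0 with overexpression, and at 0.0495 and 0.0414 in the scramble and knockdown libraries. CXCR1 and CCR2 were listed at 0 throughout, and CCR6 was at 0.0135 in the vector library and listed at 0 in the other 3. DARC, a decoy that binds IL8, CXCL1 and CCL2 without signalling, was at 0.876, 0.228, 0.438 and 0.366 RPKM in library order. Of 23 receptors and decoys in the files, 1 reached 1 RPKM, CCR10 (1.71 in the knockdown library).

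Upstream of these genes, the list of inducers of IL8 had 5 of 16 measured members higher and 0 lower with overexpression (median log2 ratio 0.41), and 0 of 15 higher and 4 lower with knockdown (median -0.36). The shares over all genes, for this and the next lists, were 10.6% higher and 7.28% lower with overexpression and 12.4% higher and 8.52% lower with knockdown, with medians of 0.02 and 0.06. Of the 5 higher inducers, IL6 was measured only through the overexpression library. Of the 4 lower with knockdown, 2 (IL1A and IL1B) were under 1 RPKM in the knockdown library and measured only through the scramble library. IL1A, an interleukin 1 that switches on NF-kB, was at 1.34 and 22.3 RPKM in the overexpression pair and at 3.04 and 0.205 in the knockdown pair. IL1B, its secreted relative, was at 4.35, 4.63, 13.9 and 0.432 RPKM in library order. Against its own control in each pair, IL1A was thus high with overexpression and low with knockdown, as IL8 was. The controls themselves differed for IL1A, at 1.34 (vector) and 3.04 RPKM (scramble). IL1B was low with knockdown and within 2-fold with overexpression, each against its own control, as CXCL1 was. The controls differed for IL1B too, at 4.35 (vector) and 13.9 RPKM (scramble). Set against the scramble library, the overexpression library (4.63) was lower past 2-fold for IL1B but not for CXCL1. The receptor chain IL1RAP was higher with overexpression (13.6 and 36.9) and lower with knockdown (9.30 and 1.84). IL6 (0.165 and 16.6), LIF (20.2 and 174.7) and the kinase IRAK2 (1.74 and 5.26) were higher with overexpression. TLR4, a receptor for bacterial lipopolysaccharide, was lower with knockdown (18.8 and 7.81).

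Of 19 transcription factors known to act on IL8, 10 were higher and 0 lower with overexpression (median log2 ratio 1.41). All 19 were at 1 RPKM or more in the vector library, and 10.6% of all genes were higher. With knockdown 3 were higher and 3 lower (median 0.12), beside 12.4% and 8.52% of all genes. The lower ones were AP-1 members: JUN (15.4 and 1.73 RPKM), FOSL2 (17.4 and 6.93) and FOS (43.2 and 18.1). The higher ones were NFKB2, an NF-kB subunit (20.5 and 47.7), EGR1 (26.0 and 62.2) and DDIT3, a C/EBP family member (34.2 and 169). With overexpression NFKB2 was at log2 ratio 2.34, the NF-kB subunit RELB at 2.12, JUN at 1.84, JUNB at 1.52, FOSL1 at 2.28, FOSL2 at 1.68 and CEBPB at 1.41. DDIT3 (4.24), EGR1 (3.55) and HIF1A (1.79) were the other higher members. JUN and FOSL2 were the members higher in the first pair and lower in the second. For FOSL2 the controls themselves differed, at 7.94 (vector) and 17.4 RPKM (scramble). Its overexpression library (27.7) was within 2-fold of the scramble library, and its knockdown library (6.93) within 2-fold of the vector library. Both calls of FOSL2 thus depended on which control was used.

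Of 8 listed feedback inhibitors of NF-kB, some of them NF-kB targets themselves, 3 were higher with overexpression and 1 was higher with knockdown. Over all genes 10.6% and 12.4% were higher, and 0 of the 8 were lower in either pair. The knockdown count is at the share of all genes. NFKBIB was higher in both (11.4 and 34.7, then 11.5 and 40.0 RPKM), and NFKBIE (4.52 and 14.4) and TNFAIP3 (3.75 and 14.1) were higher with overexpression. Other NF-kB targets had 10 of 15 higher and 0 lower with overexpression, but 6 of the 10 were under 1 RPKM in the vector library and were measured only because they were high. Of the 9 at 1 RPKM or more in the vector library, 4 were higher and 0 lower, beside 10.6% and 7.28% of all genes. With knockdown 1 of 10 was lower, near the 8.52% of all genes, and the 2 higher ones were under 1 RPKM in the scramble library. With overexpression the adhesion molecule ICAM1 (25.4 and 83.2), the survival genes BIRC2 (20.4 and 62.2), BIRC3 (0.810 and 14.3) and BCL2L1 (34.3 and 92.5), and the factor IRF1 (6.25 and 20.8) were higher. The growth factor CSF2 (0.0696 and 18.1), the lipocalin LCN2 (0.0654 and 7.89) and the protease MMP9 (0.0950 and 1.92) were higher from trace levels. MMP1 (0.569 and 5.95) and BCL2A1 (0.829 and 4.95) were higher with overexpression and also with knockdown (0.358 and 5.35 for MMP1, 0.533 and 5.28 for BCL2A1). With knockdown C3, a complement component, was lower (21.8 and 5.91).

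The chemokine messengers carry AU-rich words in their 3′ untranslated regions, which are known to shorten the life of a transcript. The 3′ UTR of IL8 held ATTTA 9 times, those of CXCL1, CXCL2 and CXCL3 5, 10 and 7 times, and that of CCL2 once. Per 1000 bases this was 7.19 for IL8, 7.08 for CXCL1, 13.9 for CXCL2, 10.4 for CXCL3, 6.24 for CCL20 and 2.66 for CCL2, beside a median of 1.52 over 17672 genes. The longer word TTATTTATT was held by 4 of the 8 genes (IL8, CXCL1, CXCL2 and CXCL3) and by 8.13% of all genes. Of 11 genes acting on the decay or stability of such transcripts, 1 was higher and 1 lower with overexpression: ZFP36, which promotes decay (14.7 and 49.5 RPKM), and ZFP36L2, its relative (38.6 and 18.3). With knockdown 0 were higher and 1 was lower, TIA1, an RNA-binding protein (10.5 and 4.06). These counts are near the shares of all genes (10.6% higher and 7.28% lower with overexpression, 8.52% lower with knockdown) and are no result about the group.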

How the data were processed

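The 4 groups of A375 cells were measured with 1 library each, grouped by sample title. The authors deposited RPKM per gene symbol, per the file headers. Per the submitters' processing notes, the tools were Cufflinks 2.2.0, SAMtools 1.1, Bowtie2 2.2.4 and TopHat2 2.0.13 and the build hg19, with no roles stated. The files hold no coordinates, and positions printed are RefSeq's in GRCh38.p14. Depth was estimated from the steps of RPKM × (length - 200)/1000 over 2288 single-transcript GENCODE 29 genes above 600 nt. There 63.9% to 70.8% of values of about 1 to 5 reads came within 0.1 of whole numbers (chance gives 20% for a depth not fitted). Depth and the 200 nt were themselves chosen to bring these values nearest to whole numbers, so that share is no independent check. A multiple of the true depth would also give whole reads, so the smallest depth of like sharpness was taken. The depth estimate and the ratio calls were tested on simulated data. Member lengths are those of the longest RefSeq-matched GENCODE transcript. Ratios used a pseudocount of 1 RPKM and a minimum of 1 RPKM in either library, and calls a log2 ratio of 1. Genes named were the members, all list genes past 2-fold and the 5 genes nearest to IL8; markers, receptors and other genes at or near 0 were named after their values were seen. Some items that fall under this rule are not reported here. The members and lists were chosen with earlier results of these data known. Python 3.11.15, numpy 2.4.6, pandas 2.3.3, scipy 1.17.1 and Biopython 1.88 were used.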

Additional observations from a re-analysis of the deposited data

How the results depend on the processing

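Of 73 chemokine log2 ratios recomputed with another pseudocount, scaling or control or with a length and GC trend removed, 72 kept their sign, 70 stayed on their side of 2-fold and 0 past 2-fold changed sign. The exceptions past 2-fold were CXCL2 with knockdown (-1.52 with a pseudocount of 0.1, -1.22 with the trend removed) and CXCL2 between the controls (1.47 with a pseudocount of 0.1). The sign that changed was that of CCL20 with knockdown (-0.20 with the trend removed). At a minimum of 5 RPKM, 2 chemokines in place of 4 were higher with overexpression, since CXCL3 and CCL20 were not measured. The share of all genes higher was 6.18% with overexpression and 7.25% with knockdown with no minimum, which adds genes near 0, and the share lower was then 4.24% and 4.96%. With a pseudocount of 0.1 the shares lower were 11.8% and 13.2%. IL8 with overexpression ranged from 1.08 (against the scramble library) to 1.64. Upper-quartile scaling shifted the all-gene median by -0.08 with overexpression, the largest shift of the scalings run. No paired analysis was possible because each group held 1 library. Depth limits CXCL5 and CXCL6, and the knockdown values of CXCL2, CXCL3 and CCL20.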

Other observations

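The genes that border the chemokines on chromosome 4 were mostly low or within 2-fold. Of 13 neighbours in the files, 4 could be measured with overexpression, and 1 was higher, measured only through the overexpression library, where 10.6% of all genes were higher: AREG, an EGF receptor ligand, at 0.235, 2.44, 0.705 and 0.982 RPKM in the order vector, overexpression, scramble, knockdown. ANKRD17 (35.5, 45.5, 32.2 and 30.1 RPKM) and COX18 (3.07, 2.56, 2.38 and 2.05) stayed within 2-fold in both pairs. MTHFD2L (1.22, 1.43, 1.35 and 0.330) was low and also counted as within 2-fold. Its log2 ratio with knockdown was -0.82 with the pseudocount, which understates the ratio of low genes. Of 9 genes listed as neighbours of CCL2 and CCL20, 5 could be measured in each pair and 0 passed 2-fold.

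Of 6 genes of the invasive melanoma state, 5 were measured with overexpression (4 higher, 1 lower) and 6 with knockdown (0 higher, 5 lower). Over all genes 10.6% were higher and 7.28% lower with overexpression, and 12.4% higher and 8.52% lower with knockdown. AXL, a receptor kinase, was at 53.7, 347, 80.6 and 21.9 RPKM in the same order, NGFR at 27.1, 106, 27.9 and 7.13, and EGFR at 4.74, 14.4, 5.45 and 1.65. Each was higher with overexpression and lower with knockdown. FOSL1, the other gene higher with overexpression (109 and 532), was not lower with knockdown (158 and 264, within 2-fold). Of the 5 lower with knockdown, SOX9 (1.86 and 0.204) was measured only through the scramble library. WNT5A was lower in both pairs (21.3 and 6.52, then 15.3 and 5.97), as CCL2 was.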
